A study of Mus musculus with 5 samples.

Results

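The messenger RNA of 10 hypoxia response genes was measured in kidneys after unilateral ischemia-reperfusion injury (UIRI). The genes were selected by name as Hif1a, Epas1, Egln1, Egln3, Vegfa, Car9, Ankrd37, Ndrg1, Adm and P4ha1, and all 10 were found among the 35478 genes of the deposited count tables. RNA-seq was available for 2 Prdm16fl/fl mice, numbered 1 and 3 in the labels, and 3 Ksp-Cre/Prdm16fl/fl mice, numbered 1 to 3, with 1 library per mouse. All 5 mice carried Prdm16 alleles with loxP sites around exon 9. The labels give their strain as C57BL/6J, whereas the methods give C57BL/6J;129. In the Ksp-Cre/Prdm16fl/fl mice, Cre recombinase driven by the promoter of kidney-specific cadherin deletes this exon in tubular epithelial cells. The methods give male littermates aged 7 to 8 weeks and name the cortex as the tissue, which the labels call kidney. The left pedicle was clamped for 35 minutes at 38.5°C, the right kidney was taken out on day 10, and the left kidney was collected 24 hours later, on day 11. Both groups were injured, so the values compare the genotypes within UIRI and say nothing of injured against uninjured kidney. The groups are called control kidneys (Prdm16fl/fl) and Ksp-Cre kidneys (Ksp-Cre/Prdm16fl/fl) in what follows, and a kidney keeps the number of its mouse.

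Cells respond to a lack of oxygen through the hypoxia-inducible factors (HIF). Hif1a and Epas1 encode the regulated subunits HIF-1α and HIF-2α. When oxygen is sufficient, the prolyl hydroxylases encoded by Egln1 and Egln3 mark these subunits for recognition by the von Hippel-Lindau protein and for degradation. When oxygen falls, the subunits persist, pair with ARNT and bind short DNA motifs to activate their targets. This control acts mainly on the protein, so the mRNA of Hif1a or Epas1 is no measure of HIF activity, whereas mRNA of targets such as Vegfa, Car9, Ankrd37, Ndrg1, Adm, P4ha1 and Egln3 itself is a common readout of it. In the kidney, tubular cells mainly use HIF-1α, and endothelial and interstitial cells mainly HIF-2α.

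Levels were compared between the genotypes in CPM, the gene's reads as a share of the library's total reads rescaled to a fixed sum, adjusted to a common composition by the trimmed mean of M-values (TMM). Of the 10 genes, 0 passed an adjusted p of 0.05 between the genotypes in edgeR's quasi-likelihood test, beside 160 of 16394 genes tested, or 0.976%. At an unadjusted p under 0.05 in the same test, 2 of the 10 genes passed, Vegfa and Car9. This is near the share over all genes tested, 18.8%. In DESeq2, 1 of the 10 genes passed, Vegfa, beside 7.54% of 15694 genes with an adjusted p. Without Ksp-Cre kidney 3, Vegfa again passed as 1 of the 10, beside 18.9% of 16196 genes. For 3 of the 10 genes, Vegfa, Car9 and Egln1, the 3 Ksp-Cre kidneys all lay below both control kidneys, and for 0 they all lay above. Over all genes tested, 21.3% lay below and 20.3% above in this way, so 3 of 10 below is near the background share for so few genes. The median log2 fold change of the 10 genes was -0.20, beside 0.038 for all genes tested. For 1 gene alone, exact permutation of 2 against 3 kidneys gives at the least p = 0.1 (one-sided) or p = 0.2 (two-sided).

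**Figure D1:**
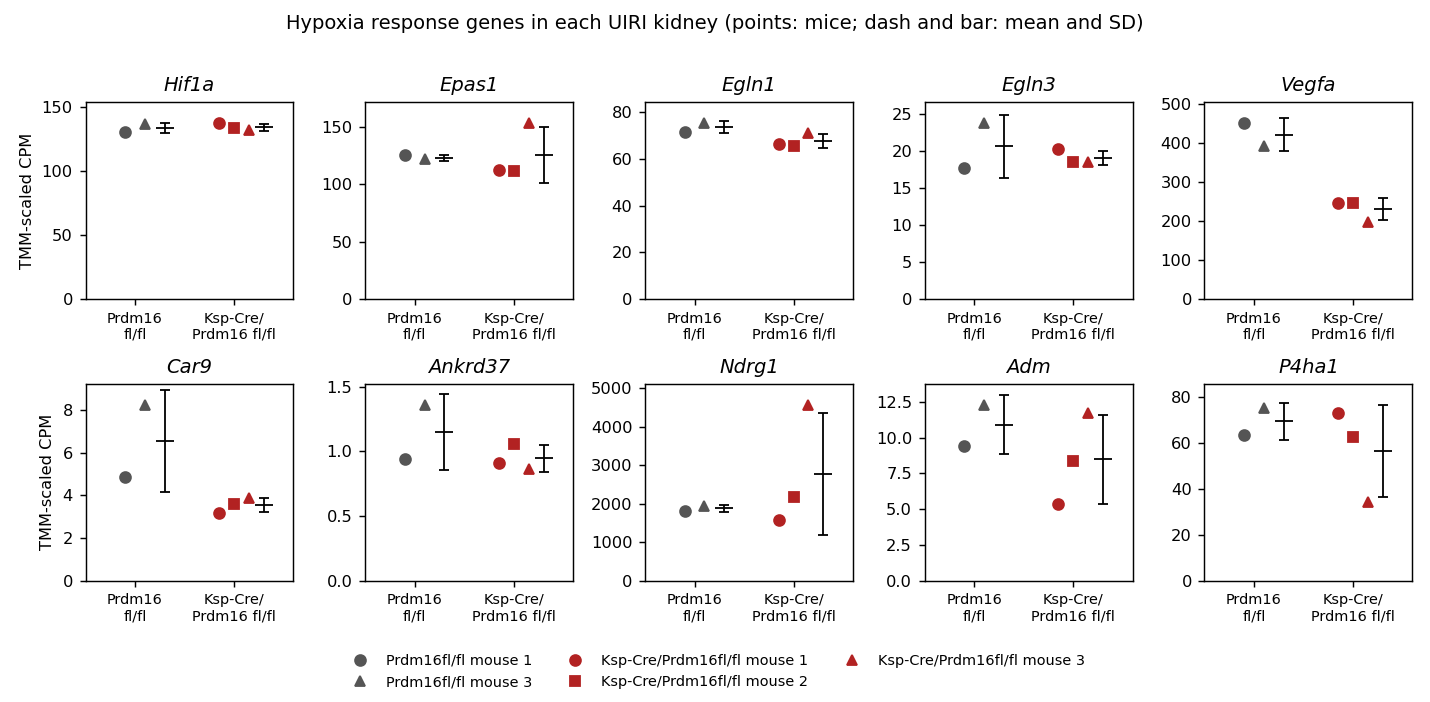
Each panel plots 1 gene, with the TMM-scaled CPM on a linear axis from 0 and the genotype on the other axis. Points are single mice, and the dash and bar are the mean and SD of the group. For Vegfa the Ksp-Cre kidneys sit between 197 and 246 CPM, below both control kidneys at 392 and 450.2 CPM. For Ndrg1 and P4ha1 the value farthest from the others is that of Ksp-Cre kidney 3.

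The libraries held 14939040 to 16425161 counted reads, and no pair agreed within counting error. Ksp-Cre kidney 3 stood apart: it held the highest or lowest of the 5 values for 64.0% of the genes tested, against 28.2% to 44.7% for the other mice. Ksp-Cre kidney 3 did so for 5 of the 10 hypoxia genes. Control kidney 3 did so for 6 of them, each time as the highest, and for 44.7% of the genes tested. Values without Ksp-Cre kidney 3 are given beside many of the results that it moves. Prdm16, the targeted gene, stood at 25.3 and 20 CPM in control kidneys 1 and 3 and at 17.1, 17.0 and 18.0 CPM in Ksp-Cre kidneys 1, 2 and 3 (log2 fold change -0.38, SE 0.15, edgeR adjusted p = 0.259). Reads over all exons and from all cells enter this value, so it does not measure the loss of exon 9 in tubules.

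The levels of the genes were compared per length, with the deposited TPM (transcript abundance per length, scaled to the same sum in each library). Ndrg1 was the most abundant, at 2019 ± 1019 TPM (SD, n = 5 mice). Vegfa followed at 174 ± 50.3 TPM, and Ndrg1 was above Vegfa, and Vegfa above the other 8 genes, in every mouse. The TPM of Hif1a was 65.0 ± 7.4, that of Epas1 55.1 ± 7.57 and that of Egln1 48.0 ± 2.46, and each of these neighbours overlapped the next in range over the 5 mice. Hif1a was above Epas1 in 4 of 5 mice, the exception being Ksp-Cre kidney 3, with 67.3 TPM of Epas1 and 63.2 TPM of Hif1a. P4ha1 stood at 35.4 ± 9.98 TPM, Adm at 16.1 ± 3.66 TPM and Egln3 at 15.5 ± 1.74 TPM. The ranges of Adm and Egln3 overlapped, and Adm was the higher of the pair in 3 of 5 mice. Egln1 exceeded Egln3 in TPM throughout, the lowest Egln1 value being 44.5 and the highest Egln3 value 17.7. Car9, at 5.06 ± 1.59 TPM, and Ankrd37, at 1.21 ± 0.178 TPM, were the least abundant and did not overlap with each other or with Egln3.

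Among the subunits, Hif1a (chromosome 12, 73948098 to 73994328 in the coordinates of the files) stood at 130.4 and 136 CPM in control kidneys 1 and 3 and at 137, 133 and 132 CPM in Ksp-Cre kidneys 1, 2 and 3. The ranges overlap, and the log2 fold change was 0.01 with a 95% interval from -0.25 to 0.27 (edgeR adjusted p = 0.964). The interval leaves room for a change of up to 1.21-fold upward or to 0.843 of the control level. Hif1a overlaps the antisense gene Gm15283, and since it is not stated whether counting used the strand, reads of the pair may be mixed.

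Epas1 (chromosome 17, 87061292 to 87140838) stood at 125 and 122 CPM in control kidneys 1 and 3 and at 112, 111 and 153 CPM in Ksp-Cre kidneys 1, 2 and 3. Ksp-Cre kidneys 1 and 2 lay below both controls and kidney 3 lay above them. The log2 fold change of 0.02 (95% interval -0.41 to 0.45, edgeR adjusted p = 0.96) thus averages kidneys on opposite sides of the controls, and without Ksp-Cre kidney 3 it was -0.15 (adjusted p = 0.306). Summed markers of endothelium, a cell type that expresses Epas1, stood at 411 and 433 CPM in the control kidneys and at 441, 373 and 542 CPM in the Ksp-Cre kidneys, so kidney 3 was the highest for them too. The median log2 fold change of these 10 markers was 0.10, and -0.01 without kidney 3. In whole tissue, fewer cells of a type and less RNA per cell cannot be told apart.

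The hydroxylases differed little between the genotypes. Egln1 (chromosome 8, 125635326 to 125675993), the main HIF prolyl hydroxylase PHD2, stood at 71.7 and 75.3 CPM in the control kidneys and at 66.5, 65.6 and 70.9 CPM in the Ksp-Cre kidneys. All of the latter were below both controls, but the gap from 71.7 to 70.9 CPM is smaller than the spread within either group. Its log2 fold change was -0.12 (95% interval -0.37 to 0.13, edgeR adjusted p = 0.573), and in deposited TPM the order turned, with 46.7 and 44.5 TPM against 50.6, 49.8 and 48.1 TPM. Egln1 overlaps Gm46060 on the same strand. Egln3 (chromosome 12, 54225767 to 54250660), PHD3, which is itself induced by HIF, stood at 17.7 and 23.8 CPM in the control kidneys. In the Ksp-Cre kidneys it stood at 20.3, 18.6 and 18.5 CPM, all of them between the controls. The log2 fold change was -0.12 (95% interval -0.53 to 0.30, edgeR adjusted p = 0.753), and it turned to 0.11 without control kidney 3.

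The promoter windows of the hypoxia genes show where the letters of the hypoxia response element lie near the start of transcription. Windows of 300 bases, from 250 before to 50 after a start site, were taken from RefSeq on GRCm38.p6, a build that differs from that of the count tables, and 8 of the 10 genes had at least 1 window there (9 windows, 2 of them for Vegfa). Epas1 and Ndrg1 had none. The core letters of the element, ACGTG and GCGTG, were searched on both strands, where they read CACGT and CACGC on the printed strand, and ACGTG overlaps its own reverse complement in CACGTG. At least 1 match was found in 8 of the 9 windows, beside 43.8% of 32851 windows of all genes (19.6% for ACGTG and 32.4% for GCGTG). All 8 genes with a window had a match, Vegfa only in the second of its 2 windows. A match of 5 letters is a description of the sequence and not a measured binding site. The windows of the 2 genes with the lowest log2 fold changes, Car9 and Vegfa, and of Ankrd37, which held the most matches, are printed 5′ to 3′ on the strand of the gene, with matches in capitals. The Car9 window is chr4:43506776-43507075 (plus strand), the Vegfa window chr17:46032328-46032627 (minus strand) and the Ankrd37 window chr8:45999801-46000100 (minus strand).
Car9: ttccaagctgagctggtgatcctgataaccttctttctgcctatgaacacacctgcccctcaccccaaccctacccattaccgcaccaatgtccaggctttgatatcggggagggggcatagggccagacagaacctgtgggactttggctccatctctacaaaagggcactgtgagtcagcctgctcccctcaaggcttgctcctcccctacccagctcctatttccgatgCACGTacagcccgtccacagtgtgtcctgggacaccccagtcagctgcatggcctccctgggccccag
Vegfa: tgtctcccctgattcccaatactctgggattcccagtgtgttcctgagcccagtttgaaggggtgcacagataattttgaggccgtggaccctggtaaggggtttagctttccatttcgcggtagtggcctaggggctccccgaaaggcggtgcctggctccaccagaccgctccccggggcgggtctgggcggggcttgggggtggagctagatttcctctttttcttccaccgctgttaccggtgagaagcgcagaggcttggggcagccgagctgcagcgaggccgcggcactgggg
Ankrd37: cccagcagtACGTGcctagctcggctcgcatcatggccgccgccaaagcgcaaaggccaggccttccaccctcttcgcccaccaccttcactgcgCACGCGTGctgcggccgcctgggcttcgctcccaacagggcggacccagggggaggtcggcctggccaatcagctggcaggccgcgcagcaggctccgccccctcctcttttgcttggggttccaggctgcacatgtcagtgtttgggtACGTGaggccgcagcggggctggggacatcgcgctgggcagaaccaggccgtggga
The Car9 window holds 1 match, on the opposite strand and 18 bases before the start site. Ankrd37 holds 4 matches, of which 2 on opposite strands share letters and 1 lies 6 bases before the start. The printed Vegfa window holds 0 matches, and the second Vegfa window, at a start inside the gene, holds 2. The known hypoxia response element of Vegfa lies farther upstream than this window reaches.

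Vegfa (chromosome 17, 46327919 to 46343303) encodes vascular endothelial growth factor A, which podocytes and tubular cells secrete to maintain the capillaries beside them. It stood at 450.2 and 392 CPM in control kidneys 1 and 3 and at 246, 246 and 197 CPM in Ksp-Cre kidneys 1, 2 and 3. The groups did not overlap, and the gap between them, from 246 to 392 CPM, was wider than the range of either group. The mean was 421 ± 41.5 CPM (SD, n = 2) against 229.6 ± 28.4 CPM (SD, n = 3), 1.83-fold lower, with a log2 fold change of -0.87 (SE 0.16, 95% interval -1.26 to -0.49). The edgeR adjusted p was 0.061, just short of the threshold. It passed with DESeq2 (adjusted p = 1.9e-04), without the filter on low counts (adjusted p = 0.037) and without Ksp-Cre kidney 3 (log2 fold change -0.77, adjusted p = 0.00321), and over all alternatives the adjusted p ranged from 1.9e-04 to 0.521. The direction did not depend on 1 mouse: in fits without any 1 of the 5 kidneys it lay between -0.97 and -0.77.

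Summed markers of the cells that make Vegfa also lay lower in the Ksp-Cre kidneys. The 7 podocyte markers, the slit diaphragm gene Nphs1 among them, summed to 780.3 and 611 CPM in control kidneys 1 and 3, against 453, 459.5 and 478 CPM in Ksp-Cre kidneys 1, 2 and 3. All 7 had a log2 fold change below 0 (median -0.64), and 1 passed the adjusted threshold. The 6 markers of the thick ascending limb summed to 2940 and 3938 CPM against 2728, 2428 and 1302 CPM, with a median of -0.68 and 0 passing. The 12 markers of the proximal tubule summed to 10443 and 10994 CPM against 4351, 5045 and 4089 CPM, with a median of -1.40 and 2 passing. Vegfa passed in DESeq2 and without Ksp-Cre kidney 3. In these 2 settings 4 and 5 podocyte markers passed, with 2 and 2 of the thick ascending limb and 7 and 11 of the proximal tubule, all lower. Of all genes, 7.54% passed in DESeq2 and 18.9% without Ksp-Cre kidney 3. Without that kidney the median of the thick ascending limb was -0.40. Like Vegfa, the thick ascending limb and proximal tubule sums were lowest in Ksp-Cre kidney 3, as was that of the distal convoluted tubule. The podocyte sum was not. This kidney was the highest or lowest for 64.0% of all genes tested. The part of these cells in the Vegfa difference was not tested.

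**Figure D2:**
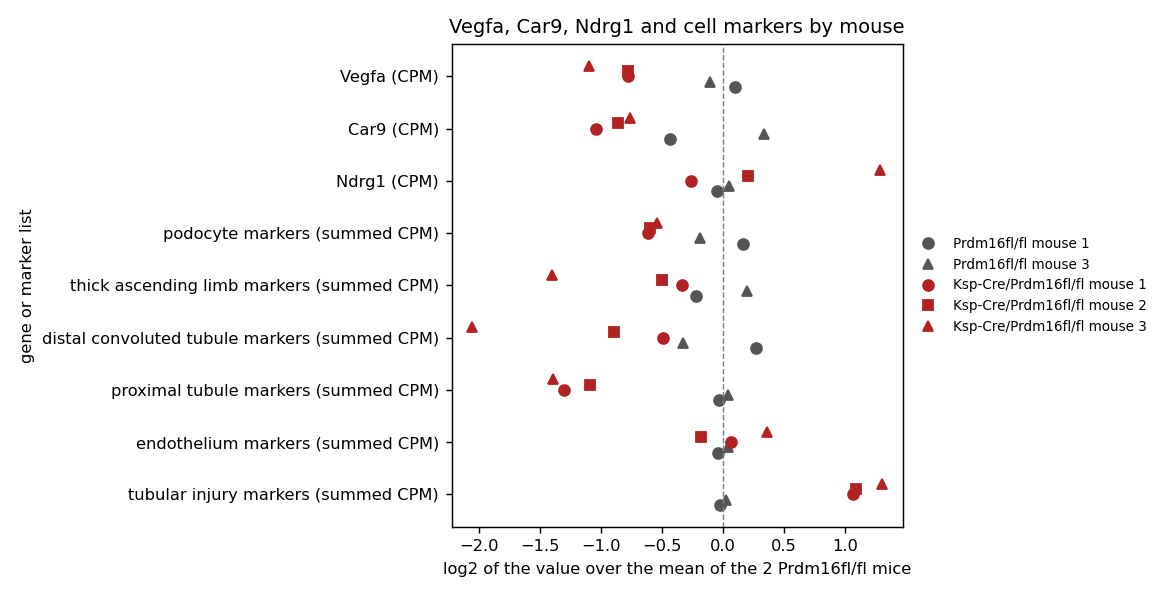
Each row gives Vegfa, Car9, Ndrg1 or a list of cell markers, and the axis gives the log2 of each mouse's CPM, summed over the list where it is a list, over the mean of the 2 control kidneys. Vegfa and the podocyte, distal convoluted and proximal tubule markers lie left of both control kidneys in all 3 Ksp-Cre kidneys, the tubular injury markers lie right of them, and Ndrg1 is farthest from the controls in kidney 3.

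Car9 (chromosome 4, 43507026 to 43513729) encodes carbonic anhydrase 9, a cell surface enzyme of pH control. Its counts were 72 and 115 in control kidneys 1 and 3 and 56, 61 and 58 in Ksp-Cre kidneys 1, 2 and 3, or 4.85 and 8.25 CPM against 3.18, 3.60 and 3.86 CPM. The 3 Ksp-Cre kidneys were close to each other and below both controls, which themselves differed by more than the gap between the groups. Its log2 fold change was -0.88 (SE 0.30, 95% interval -1.61 to -0.16, edgeR adjusted p = 0.196), a 1.84-fold lower level. Control kidney 3 carried much of it: without this mouse the log2 fold change was -0.45, and without control kidney 1 it was -1.22. Without Ksp-Cre kidney 3 it was -0.94, with an adjusted p of 0.051, and over all alternatives the adjusted p ranged from 0.051 to 0.825. The gene lies opposite Arhgef39 and Tpm2, so antisense reads may be included.

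Ndrg1 (chromosome 15, 66801167 to 66841490), N-myc downstream regulated gene 1, is a stress-induced gene of epithelial cells. It stood at 1817 and 1940.1 CPM in control kidneys 1 and 3. In Ksp-Cre kidneys 1, 2 and 3 it stood at 1568, 2169.9 and 4575 CPM, below, above and far above the controls. Kidney 3 held 2.45-fold the mean of Ksp-Cre kidneys 1 and 2. The log2 fold change was 0.56 with a wide 95% interval from -0.54 to 1.66 (edgeR adjusted p = 0.543), and without kidney 3 it was -0.0049 (adjusted p = 0.987).

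P4ha1 (chromosome 10, 59159019 to 59209126) encodes the catalytic subunit of collagen prolyl 4-hydroxylase, which stabilises the collagen triple helix. It stood at 63.5 and 75.1 CPM in the control kidneys and at 72.8, 62.5 and 34.2 CPM in Ksp-Cre kidneys 1, 2 and 3. Kidneys 1 and 2 lay within or next to the range of the controls, and kidney 3 held 1.98-fold less than their mean. P4ha1 had a log2 fold change of -0.29 (95% interval -1.04 to 0.46, edgeR adjusted p = 0.647), and it was -0.029 without kidney 3. In this kidney P4ha1 and Ndrg1, both induced by HIF, thus lay at opposite ends of the 5 mice.

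Adm (chromosome 7, 110226864 to 110229027) encodes adrenomedullin, a peptide that widens blood vessels. It stood at 9.44 and 12.3 CPM in the control kidneys and at 5.39, 8.39 and 11.7 CPM in Ksp-Cre kidneys 1, 2 and 3. Kidneys 1 and 2 lay below both controls and kidney 3 between them, so the groups overlap. Adm had a log2 fold change of -0.36 (95% interval -1.20 to 0.47, edgeR adjusted p = 0.607), and -0.66 without kidney 3 (adjusted p = 0.0892). Ankrd37 (chromosome 8, 46449945 to 46453272), a small ankyrin repeat gene, had 14 and 19 counts in the control kidneys and 16, 18 and 13 in the Ksp-Cre kidneys. These counts are too few to show a difference of this size: the log2 fold change of -0.28 had a 95% interval from -1.15 to 0.59 (edgeR adjusted p = 0.716). Adm overlaps Gm28863 and Ankrd37 overlaps Ufsp2, each on the opposite strand.

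**Figure D3:**
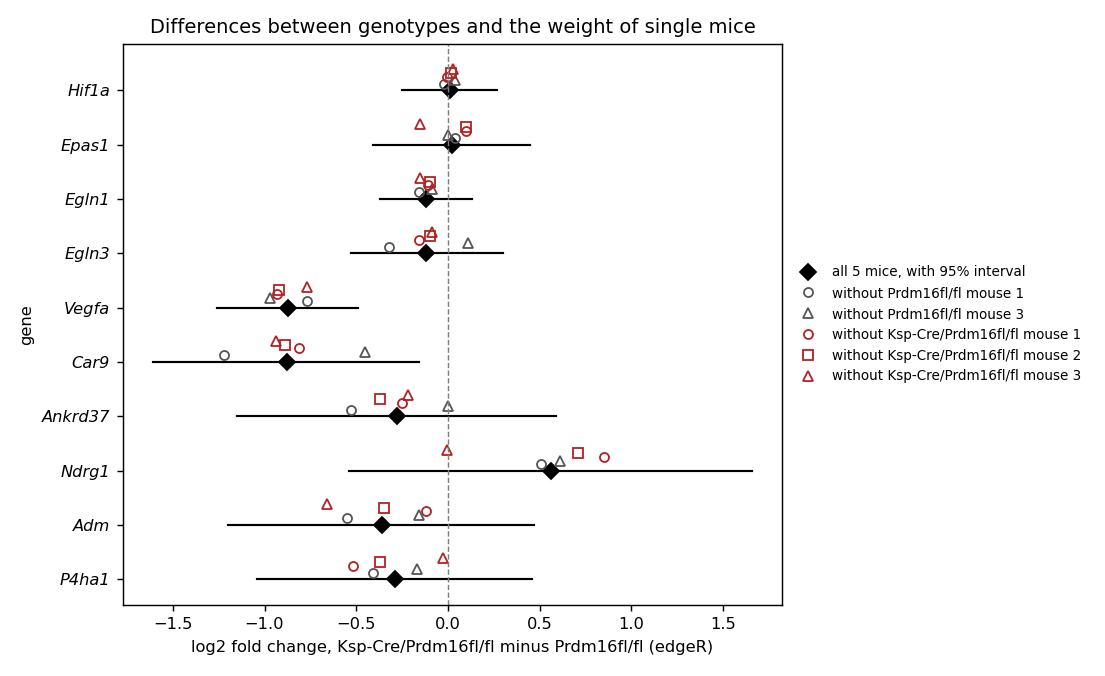
The log2 fold change between the genotypes is on the horizontal axis and the 10 genes are on the vertical axis. Diamonds and lines are the fit of all 5 mice with its 95% interval, and open symbols are fits without 1 mouse each. Only the intervals of Vegfa (-1.26 to -0.49) and Car9 (-1.61 to -0.16) lie below 0, and Ndrg1 moves from 0.56 to -0.0049 without Ksp-Cre kidney 3.

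The scale changed the view of the genes that differed little. In TPM, which corrects for gene length but not for differences in library composition, the median gene tested was higher in Ksp-Cre kidneys by 0.28 on the log2 scale. In TPM, 4 of the 10 genes (Hif1a, Epas1, Egln1 and Ndrg1) lay above both control kidneys in all 3 Ksp-Cre kidneys, beside 39.5% of all genes tested, and 2 (Vegfa and Car9) lay below, beside 10.4%. Hif1a, for example, stood at 60.0 and 56.6 TPM against 73.7, 71.6 and 63.2 TPM, a log2 ratio of the means of 0.25, which is about the shift of the median gene. Vegfa and Car9 both had a log2 ratio of -0.63 in TPM and thus kept their direction against this shift.

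The wider pathway was examined with 97 other genes of HIF regulation and HIF targets in 6 lists, of which 95 were tested. Epo and Cox4i2 had too few counts, and Epo, the hormone gene of renal interstitial cells, had 2 counts in control kidney 3 and 0 in the other mice, too few for a comparison. Of the 95 genes, 0 passed the adjusted threshold in edgeR, beside 0.976% of all genes, with 22 (23.2%) at an unadjusted p under 0.05 beside 18.8% of all genes, 11 higher and 11 lower. In DESeq2 11 of 94 genes passed (11.7%), beside 7.54% of all genes, and without Ksp-Cre kidney 3 23 of 94 did (24.5%), beside 18.9% of all genes in that fit. The genes named in what follows were taken from the 2 lowest and the 2 highest of each list by log2 fold change, and none of them passed in the fit of all 5 mice.

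Among 18 other subunits and regulators, 10 were above 0 and 8 below, with a median log2 fold change of 0.052, which turned to -0.05 without Ksp-Cre kidney 3. Siah2, a ubiquitin ligase that degrades prolyl hydroxylases, was at -0.46 and Elob, an elongin of the von Hippel-Lindau complex, at -0.38. Without Ksp-Cre kidney 3 Siah2 was at -0.31, and Elob passed, at -0.40 (edgeR adjusted p = 0.0452). Vhl itself was at 0.37, with 21.8 and 23.1 CPM against 29.2, 26.3 and 31.3 CPM, and the HIF partner Arnt2 was at 0.49, and at 0.27 without Ksp-Cre kidney 3. Vhl and Arnt2 were the 2 genes of the list (11.1%) that were higher in all 3 Ksp-Cre kidneys than in both controls. Siah2 and Elob were among 5 (27.8%) that were lower in all 3. The shares over all genes tested were 20.3% higher and 21.3% lower.

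Among 13 tested vascular and growth factor targets the median was 0.44, and 0.16 without Ksp-Cre kidney 3. Kdr, the main signalling receptor of Vegfa on endothelium, stood at 53.1 and 39.5 CPM in the control kidneys and at 28.2, 23.2 and 35.7 CPM in the Ksp-Cre kidneys (log2 fold change -0.67, edgeR adjusted p = 0.187), and passed without Ksp-Cre kidney 3 (-0.85, adjusted p = 0.0103). Angptl4, a lipoprotein lipase inhibitor, was at 1.28 with 333 CPM in Ksp-Cre kidney 3, and at 0.39 without it. Apln, an endothelial peptide, was at -0.81, and at -0.43 without that kidney.

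Among 21 genes of glucose uptake and glycolysis, 10 were above 0 and 11 below, with a median of -0.098. The ends of the list were different enzymes of the same pathway on opposite sides. Pfkp, a phosphofructokinase, stood at 87.8 and 87.0 CPM against 129.8, 129 and 147 CPM (log2 fold change 0.63, SE 0.12, edgeR adjusted p = 0.0666), the smallest adjusted p of the 95 genes. Hk2, an inducible hexokinase, was at 1.03, with 6.47 and 7.53 CPM against 18.3, 12.9 and 11.5 CPM. Tpi1, triosephosphate isomerase, stood at 755 and 718 CPM against 526, 486 and 435 CPM (log2 fold change -0.61, edgeR adjusted p = 0.103), and Aldoc was at -0.49. Pfkp, Hk2 and Tpi1 passed in DESeq2 and without Ksp-Cre kidney 3.

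Among 11 tested targets of pH control and mitochondria the median was -0.21. Car12, a membrane carbonic anhydrase related to Car9, stood at 433 and 387 CPM against 239, 219.9 and 91.8 CPM (log2 fold change -1.16, SE 0.39, edgeR adjusted p = 0.193). Higd1a, a small mitochondrial protein, was at -0.70. Car12 and Higd1a passed in DESeq2 (adjusted p = 0.0408 and 0.0305) and without Ksp-Cre kidney 3 (edgeR adjusted p = 0.00249 and 0.0239). In the latter fit Car12 was at -0.83 and Higd1a at -0.63. Bnip3l, a mitophagy receptor, was at 0.22 and Ndufa4l2 at 0.18, and without that kidney they were at 0.10 and 0.36. Of the list, 5 genes were lower in all 3 Ksp-Cre kidneys than in both controls and 0 were higher, beside 21.3% and 20.3% of all genes tested. Other lists leaned the other way, with 3 lower and 5 higher of 13 vascular targets. The counts were 1 and 4 of 7 for collagen modification and 3 and 10 of 25 for stress and transcription. Glycolysis had 6 lower and 4 higher of 21, and all 95 genes had 23 lower and 25 higher.

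Among 7 other genes of collagen modification, which act in the same pathway as P4ha1, 6 were above 0 and the median was 0.32, or 0.16 without Ksp-Cre kidney 3. Lox, the enzyme that crosslinks collagen, stood at 9.37 and 13.9 CPM against 39.2, 31.8 and 99.5 CPM (log2 fold change 2.29, SE 0.56, edgeR adjusted p = 0.113). It had the largest difference of the 95 genes, passed in DESeq2 (adjusted p = 1.5e-04) and was at 1.62 without Ksp-Cre kidney 3 (adjusted p = 0.00149). Loxl2 was at 0.58 and passed without that kidney (0.72, adjusted p = 0.0292). Plod1 was at 0.09, or 0.15 without it, and P4hb, the partner subunit of P4ha1, was at -0.26. Summed markers of fibroblasts and pericytes, which express Lox, stood at 494 and 594 CPM against 949, 883 and 745 CPM. Of these 9 markers 0 passed, against 2 in DESeq2 and 4 without Ksp-Cre kidney 3, all higher. The shares of all genes were 7.54% in DESeq2 and 18.9% without that kidney. The part of these markers in the Lox difference was not tested.

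Among 25 targets of stress and transcription, 20 were above 0 and the median was 0.26. Klf10, a transcription factor also induced by TGF-β, was at 1.10, with 35.1 and 41.2 CPM against 59.9, 84.4 and 101 CPM (edgeR adjusted p = 0.085). Hmox1, heme oxygenase 1, was at 1.16, and 153 CPM in Ksp-Cre kidney 3 weighed most, since it was at 0.46 without that mouse (adjusted p = 0.0454). Ak4, a mitochondrial adenylate kinase of the proximal tubule, stood at 302 and 356 CPM against 131, 123 and 45.4 CPM (log2 fold change -1.72, SE 0.43, edgeR adjusted p = 0.113). Klf10 and Ak4 passed in DESeq2 (adjusted p = 0.00152 and 0.00131) and without Ksp-Cre kidney 3 (edgeR adjusted p = 0.00661 and 4.2e-04). In the latter fit Klf10 was at 0.92 and Ak4 at -1.37. Ksp-Cre kidney 3 was the lowest of the 5 mice for Ak4 and for the summed proximal tubule markers. The transferrin receptor gene Tfrc was at -0.37, and at -0.23 without that kidney.

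**Figure D4:**
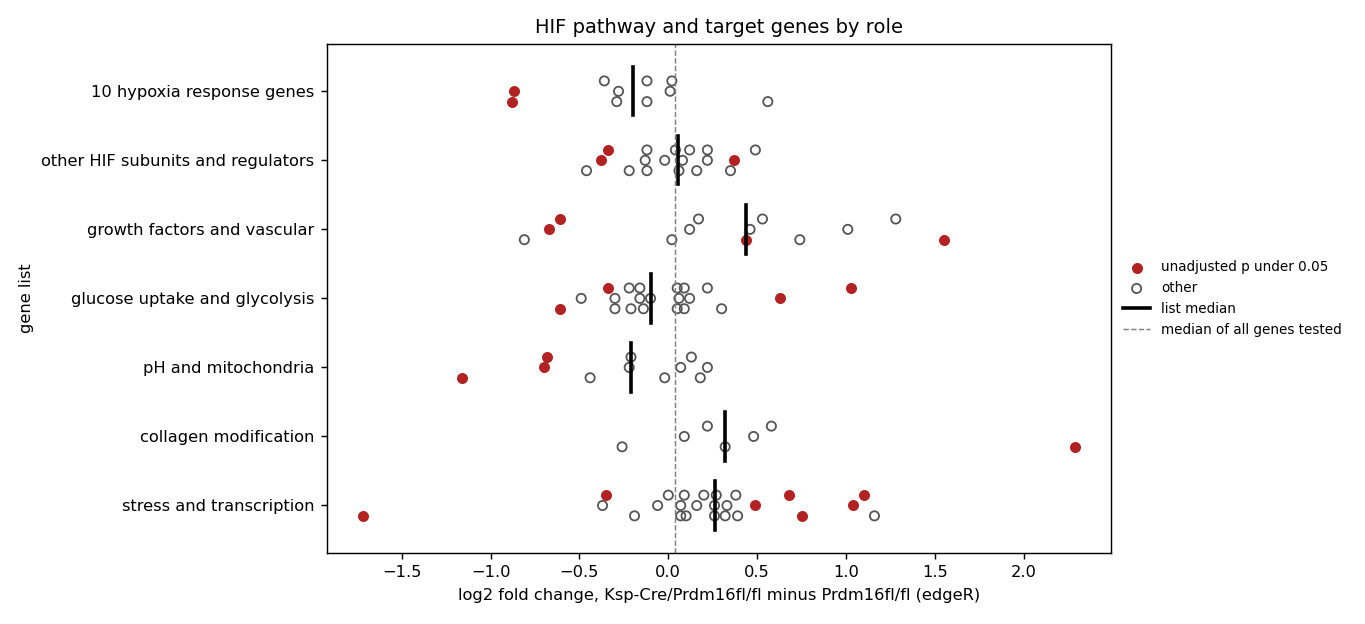
Each point is 1 gene, placed by its log2 fold change between the genotypes and grouped by role. Filled points have an unadjusted p under 0.05, black bars are list medians and the dashed line is the median of all genes tested. The 10 hypoxia response genes have a median of -0.20, and the lists of growth factors (0.44) and collagen modification (0.32) have medians above 0, both 0.16 without Ksp-Cre kidney 3, with 0 genes past the adjusted threshold.

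Other cell markers moved with the genotypes or with single kidneys. The 10 markers of tubular injury, Havcr1 and Lcn2 among them, summed to 15288 and 15886 CPM in the control kidneys and to between 32619.6 and 38457 CPM in the Ksp-Cre kidneys, with all 10 above 0. Of these 10, 0 passed the adjusted threshold in the fit of all 5 mice, 7 in DESeq2 and 10 without Ksp-Cre kidney 3. For this and the following lists, the shares of all genes passing were 0.976%, 7.54% and 18.9% in these 3 fits. Markers of the distal convoluted tubule (1926 and 1278 CPM against 1139, 863 and 385 CPM) and of the collecting duct (607 and 492 CPM against 461, 264 and 347 CPM) also lay lower in all 3 Ksp-Cre kidneys, with 0 genes past the adjusted threshold, against 0 of 4 and 2 of 8 in DESeq2 and 2 of 4 and 3 of 8 without Ksp-Cre kidney 3. Those of red blood cells, which carry oxygen, summed to 6.67 and 10.8 CPM against 151, 150.3 and 40.5 CPM, with all 5 above 0, and 0 passed, against 5 in DESeq2 and 5 without Ksp-Cre kidney 3. Macrophage markers summed to 973 and 1368 CPM against 1581, 1446 and 771 CPM, with 0 of 8 passing, and 4 of 8 higher without Ksp-Cre kidney 3 (median log2 fold change 0.25, and 0.41 without it). Lymphocyte markers (28.6 to 61.6 CPM) and proliferation markers (189 to 319 CPM) overlapped between the groups, and without Ksp-Cre kidney 3, 0 and 4 of 8 passed. Neutrophil markers summed to 19.3 and 17.6 CPM against 26.8, 35.1 and 20.5 CPM, with 0 of 5 passing, 1 in DESeq2 and 2 of 4 without that kidney. Of the markers of neighbouring tissues, those of adipocytes summed to 30.4 and 30.2 CPM against 36.1, 32.8 and 58.8 CPM and those of the adrenal cortex to between 5.39 and 8.73 CPM, with 1 gene of each list tested. The part of each in the hypoxia genes was not tested.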

How the data were processed

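PolyA-selected RNA of 5 kidneys was sequenced as 150-base paired ends. Per the labels, the authors counted reads per gene with featureCounts 2.0.1 and deposited raw counts, FPKM and TPM for each library. The labels list a human build, whereas the coordinates in the files are those of a mouse build that is not named. The aligner and the strand setting are not given in the sources used here. Genes with low counts were removed with filterByExpr, leaving 16394. The deposited counts were TMM-scaled and tested with edgeR's quasi-likelihood test, with Benjamini-Hochberg adjustment over all genes tested and a threshold of 0.05. Intervals are the log2 fold change ± t × SE. Mice were grouped by the labels, and p-values cover the spread between these mice. Alternatives were DESeq2, other scalings and filters, limma on log2(FPKM + 1) and log2(FPKM + 0.1), a length and GC correction, a replicate block and each mouse left out. Scripts were tested on simulated data. The genes and lists were chosen with earlier results of these data known. All 10 hypoxia genes are named, and of each other pathway list the 2 genes with the lowest and the 2 with the highest log2 fold change, except 1 gene that is not reported here. Lines of 5 genes that were broken in the files were rejoined.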

Additional observations from a re-analysis of the deposited data

How the results depend on the processing

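With 2 mice against 3, the number of genes past the threshold depended on the setting. Against 160 genes in all, DESeq2 gave 1183, no filter on low counts 471, library size scaling 51, limma on log2(FPKM + 1) 69, limma on log2(FPKM + 0.1) 49 and the length and GC correction 43. Leaving out 1 mouse gave 0 to 3053, the highest without Ksp-Cre/Prdm16fl/fl mouse 3, and the lone Prdm16fl/fl mouse left in 2 of these fits is assumed to vary like the other group. Of the 10 hypoxia genes, 0 passed, against 1 with DESeq2, 1 without the filter and 0 to 1 with a mouse left out. Of the other pathway genes 0 passed, against 11 with DESeq2, 1 without the filter and 0 to 23 with a mouse left out. The number of hypoxia genes whose groups did not overlap was 3, beside 41.6% of all genes tested, and 4 to 7 with a mouse left out, beside 48.9% to 63.3% of all genes in those smaller groups. Their median log2 fold change of -0.20 was -0.085 with library size scaling. It was -0.009 in both limma fits, which do not include Ankrd37 because of its low FPKM, so this median covers fewer genes. With a mouse left out it ran from -0.36 without Prdm16fl/fl mouse 1 to -0.044 without Prdm16fl/fl mouse 3. Library size scaling moved the median of all genes from 0.038 to 0.149.

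Vegfa and Car9 kept their direction in every alternative, from -0.97 to -0.76 and from -1.22 to -0.45. The sign turned for Epas1 with the length and GC correction (-0.0368) and with a mouse left out (-0.15 to 0.1). It also turned with a mouse left out for Hif1a (-0.0204 to 0.0394), Ankrd37 (-0.53 to 0.00287), Ndrg1 (-0.00492 to 0.85) and Egln3 (-0.32 to 0.11), and for Egln3 with library size scaling (0.00106) and in limma on log2(FPKM + 1) (0.0055) and log2(FPKM + 0.1) (0.00705). The cause was not tested. The replicate numbers 1 and 3 occur in both groups, and deviations of same-numbered mice correlated at 0.001 and -0.022. The deviations of Prdm16fl/fl mice 1 and 3 mirror each other, so these correlations are not independent. They cannot show whether same-numbered mice shared more than a number. With the replicate block, edgeR called 0 genes, with 2061 at an unadjusted p under 0.05, and Vegfa was at -0.93 (adjusted p = 0.19).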
